A study of Mus musculus with 2 samples.

Results

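This account concerns the transcripts that the GENCODE M21 annotation of the mouse genome (mm10) labels as nonsense-mediated decay (NMD) transcripts, as measured in the adrenal gland. They were chosen by the transcript class written in each transcript's identifier, without use of any measured value, and they number 7186 of 141767 annotated transcripts. They lie in 4576 of 55450 genes, and 1589 of these genes hold more than 1 such model, up to 18 in a single gene. The tissue was the adrenal gland of B6CASTF1/J males aged 36 days, the F1 hybrid of a C57BL/6 and a CAST strain. Each of the 2 libraries was made from 300 ng of RNA with ERCC spike-in RNA added. The libraries form 1 group, named replicates 1 and 2 after the labels, so no treatment, genotype or age was compared. Every value is therefore a level, a share of a level or a spread between the 2 libraries, and no p-value is given. The labels disagree on whether the libraries come from separate animals: they differ in the animal named for the tissue but not in the one named for the library. The spread between them may thus be technical.

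Nonsense-mediated decay is a cytoplasmic surveillance pathway that degrades mRNAs on which a ribosome stops too early. Splicing leaves a protein complex, the exon junction complex, just upstream of each exon junction. A stop codon well upstream of the last junction leaves such a complex on the mRNA when the ribosome ends translation. The factors UPF1, UPF2 and UPF3 then act with the SMG kinase and nucleases to destroy the mRNA. Many genes for splicing factors use this route to hold down their own output, through so-called poison exons that carry an in-frame stop codon. A transcript of this class is thus expected to be short-lived, and its steady level reflects both how often it is made and how fast it is lost. The label is a prediction from the position of the stop codon, and decay was not measured in these libraries.

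The annotated models share the features that the label is built on. In 7151 of the 7186 transcripts (99.51%) the stop codon lay at least 50 bases before the last exon junction, which was the case in 330 of 47808 protein-coding transcripts with an annotated stop codon (0.690%). The median distance was 334 bases, with quartiles of 160 and 741.8 bases. Compared with the reference coding transcript of the same gene, 6542 models (91.04%) ended earlier, 357 used the same stop codon and 192 ended later, and 95 had no reference. An exon absent from the coding transcripts was present in 2250 models (31.31%), a coding exon was skipped in 2752 (38.3%), and an intron was kept in 301 (4.189%). These features overlap, since a model can have more than 1 of them. The stop codon lay inside the extra exon in 1435 models (19.97%). The models had a median length of 1255 bases against 3024 bases for the reference transcripts, and their coding sequence had a median of 23.31% of the reference coding length. The annotation marks the start of 2081 models (28.96%) as incomplete, so the lengths of these can be understated. TGA was the stop codon of 57.88% of the models and of 52.51% of the reference transcripts, TAA of 22.45% and 24.16%, and TAG of 19.67% and 23.33%.

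**Figure D1:**
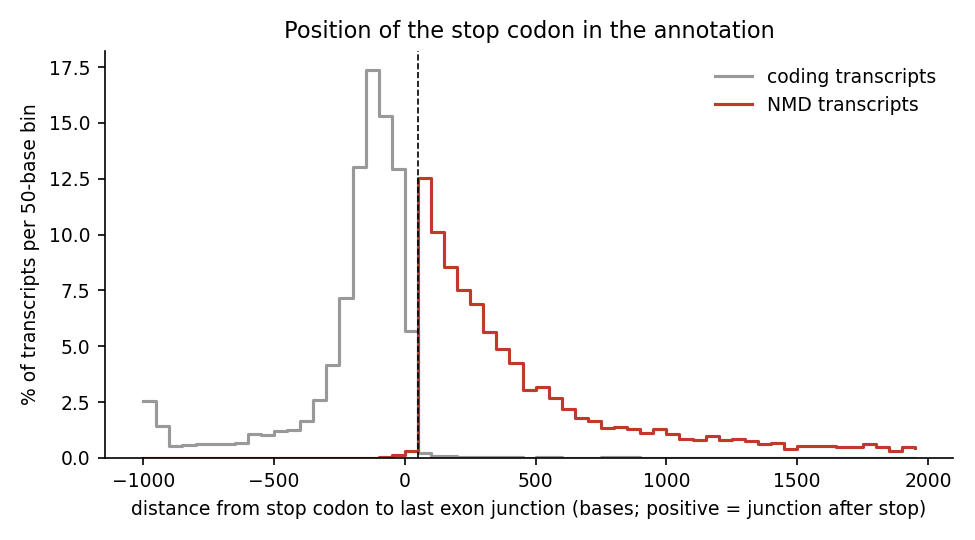
Distance from the stop codon to the last exon junction in the annotation (x axis, bases, positive where the junction follows the stop codon, shown from -1000 to 2000) against the percentage of transcripts in each 50-base bin (y axis). Red, NMD transcripts; grey, protein-coding transcripts with a stop codon; dashed line, 50 bases. The NMD models lie almost entirely to the right of the dashed line, as the class is defined.

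The sequences that end the reading frame show the kinds of event behind the class. Each is the last 30 bases of the annotated reading frame from the GENCODE M21 transcripts, 5′ to 3′, with the stop codon in capitals. The first set is from genes of SR proteins, serine- and arginine-rich splicing factors, and shows the stop codons of their poison exons or of an alternatively spliced stretch.

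Srsf6-201: gccatgacgacagcagccttttgccatTAG

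Tra2b-206: aatgagtatttgaagctcaggaataagTGA

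Srsf3-201: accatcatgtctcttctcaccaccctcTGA

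Tra2a-202: aaaaaattgaacagaagattggtcagaTAG

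Srsf11-206: gctgaagttcttttccctggttcagccTGA

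Srsf7-203: aggtttcttcgtttgagtcagtcgcctTGA

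In mm10 the exon of Tra2b-206 that carries the stop codon and is absent from the coding transcripts spans chr16:22258986-22259261 on the minus strand. The corresponding exon of Srsf3-201 spans chr17:29039454-29039909 on the plus strand, that of Tra2a-202 chr6:49252803-49253108 on the minus strand, that of Srsf11-206 chr3:158024123-158024231 on the minus strand and that of Srsf7-203 chr17:80204622-80205081 on the minus strand. Srsf6-201 has no separate extra exon but 103 bases outside the coding exons, and its stop codon is at chr2:162932964-162932966 on the plus strand. From the stop codon to the last junction there are 1015 bases in Tra2b-206, 548 in Srsf3-201, 964 in Tra2a-202, 456 in Srsf11-206, 699 in Srsf7-203 and 534 in Srsf6-201, all far over the 50-base limit.

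The second set is from genes whose NMD transcripts were abundant in the gland, chosen to show an extra exon, a few added bases, a skipped exon and 2 models that do not end early.

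Pnpla2-201: ctgggtgatcttgagcagctagaacaaTGA

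Atp5f1-203: aaccaaatctggtcctgtgaagagcagTAA

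Ndufa3-204: gggcctcgctataattatgcccatgatTAG

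Eif4a2-210: ttgcattggaggaacaaatgttcgaaaTGA

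Chpt1-207: ccggaacaggtttacaagcatattgacTGA

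Hnrnpu-206: gtccatgtgaatgtgctgtgtgaagagTAA

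Pnpla2-201 holds an 82-base extra exon at chr7:141456568-141456649, plus strand, and stops within it at 16.3% of the reference coding length. Atp5f1-203 holds a 167-base extra exon at chr3:105957870-105958036, minus strand, and stops within it at 23.0% of that length. Ndufa3-204 has 10 bases outside the coding exons and stops at chr7:3619449-3619451, plus strand, 56 bases before its last junction. Eif4a2-210 lacks a coding exon and stops at chr16:23110065-23110067, plus strand, at 23.8% of the reference coding length. Chpt1-207 uses the same stop codon as the coding transcript, at chr10:88475405-88475407, minus strand, and is placed in the class by a junction 72 bases after it. Hnrnpu-206 ends later than the reference, at chr1:178325281-178325283, minus strand, with its last junction 183 bases downstream. The coding lengths of the last 2 models are 100% and 99.1% of the reference.

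The libraries held 35813366 and 30628771 expected counts in replicates 1 and 2 in the first of 2 deposited transcript tables, and 35293226 and 28100411 estimated counts in the second. All 5 markers of adrenal cortex and all 5 of adrenal medulla reached 1 TPM, the deposited unit of abundance, which is corrected for transcript length and sums to 1000000 in each library, in both libraries. Replicate 2 stood apart in pancreatic exocrine RNA. None of 6 pancreas markers reached 1 TPM in replicate 1 and all 6 did in replicate 2, with sums of 0.24 and 7254 TPM. The cortex markers summed to 12806.6 and 7085 TPM, those of the medulla to 1427 and 1671, 4 liver markers to 11.46 and 87.97 and 4 fat markers to 882.5 and 800.9, and the part of these differences in the NMD values was not tested. None of those 6 genes has an NMD transcript. The 103 genes that were at least 32-fold higher in replicate 2 held 28.05 TPM of NMD transcripts there, which is 0.440% of that library's NMD TPM. Nuclear protein-coding genes took 31.04% and 23.23% of all TPM in the first table and 59.12% and 58.33% in the second, so NMD transcripts are given below as shares, and TPM values of the 2 tables are not on the same scale. In these bulk samples, fewer cells of a type and less RNA per cell cannot be told apart.

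NMD transcripts were a small part of the adrenal transcriptome and an almost equal part of both libraries. In the first table they held 2.771% of the TPM of nuclear protein-coding genes in replicate 1 and 2.744% in replicate 2 (2.757% ± 0.0189, mean ± SD, n = 2). In the second table they held 3.550% and 3.573% (3.562% ± 0.0163). The tables thus differed from each other by far more than the libraries did. By number, NMD transcripts are 7.067% of the annotated transcripts of these genes. By counts, which are not corrected for length, they held 442614 of 22688563 expected counts in replicate 1 (1.95%) and 360327 of 17842567 in replicate 2 (2.02%).

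The other 2 classes of transcript from coding genes that were compared held more. Retained-intron transcripts held 7.227% and 8.332% of that TPM in the first table, and processed transcripts, which have no annotated reading frame, held 5.001% and 5.203%. Protein-coding transcripts held the largest share, 84.99% and 83.71%. The NMD share was the steadiest of the 4 between the libraries in the first table: the SD was 0.0189 points for NMD against 0.781 for retained introns, 0.143 for processed transcripts and 0.906 for coding transcripts. These SDs are not scaled to the size of the class.

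**Figure D2:**
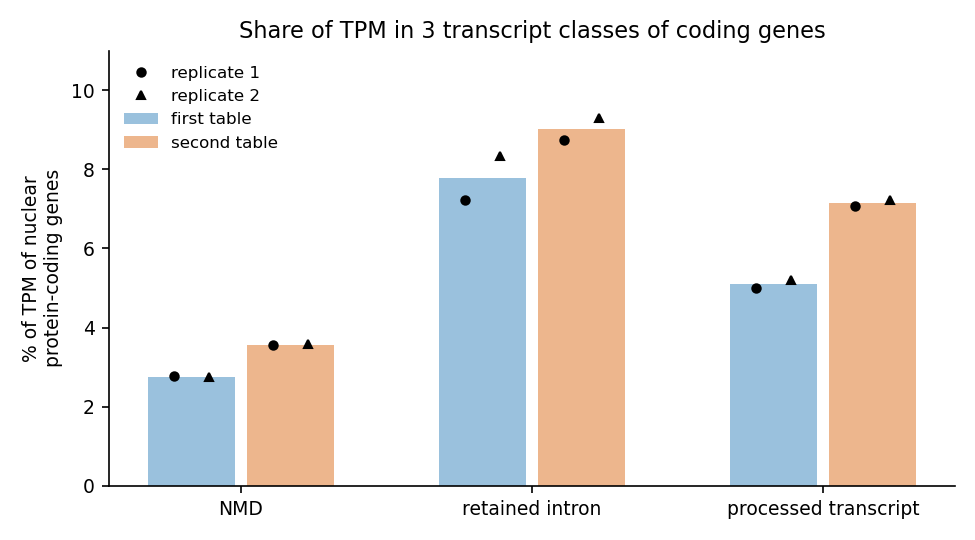
Percentage of the TPM of nuclear protein-coding genes (y axis, linear from 0) in NMD, retained-intron and processed transcripts (x axis), for the first table (blue) and the second (orange). Bars are the mean of the 2 libraries, circles replicate 1 and triangles replicate 2. NMD transcripts have the smallest bar in both tables, at 2.757% and 3.562%.

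Of the 7186 NMD transcripts, 879 reached a minimum of 1 TPM in both libraries of the first table, 1774 did so in the second and 692 in both tables. Among transcripts of nuclear protein-coding genes, the part at 1 TPM in both libraries of the first table was 12.22% for NMD models, 13.79% for retained-intron, 10.61% for processed and 27.23% for coding transcripts. Any count at all was assigned to 52.25% and 52.45% of the NMD models. The deposited interval around each TPM, whose level is not given in the sources used here, had its lower bound at or above 1 TPM in both libraries for 487 of the 879. Of the same 879, 57 were listed at 0 counts in both libraries of the second table. Among the 879, 796 stopped earlier than the reference, 322 skipped a coding exon, 230 held an extra exon and 33 kept an intron.

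How far a read can tell an NMD model from the coding transcript depends on the sequence it does not share. Of all the models, 2841 (39.54%) had no base outside the coding exons of their gene, so that only reads across an unusual junction or end are specific to them, and these models held 39.05% and 38.33% of the NMD TPM in the first table. The 3275 models with at least 50 bases outside the coding exons held 34.73% and 36.89% of it in the first table and 45.05% and 46.75% in the second. Agreement between the tables did not follow the number of such bases in order. Of the models at 1 TPM in both libraries of either table, 49.52% of those with at least 50 such bases were within 2-fold between tables, 41.16% of those with 1 to 49 and 42.81% of those with none. The contrast was wider for kept introns, at 75.45% of models that keep 1 and 44.43% of the others. The annotation also grades support, from level 1, the strongest, to level 5, the weakest. The 2351 models at level 5 held 36.51% and 35.25% of first-table NMD TPM. Counted as above, 40.54% were within 2-fold between tables. For the 2080 at level 1 the values were 33.65%, 34.67% and 58.92%. Ppia-201, Ndufa3-204, Tkt-205, Adh1-202, Eif4a2-210 and Srsf6-201 are at level 5, and Rpsa-206, Pnpla2-201, Angptl4-202 and Chpt1-207 at level 1.

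Within the genes that have an NMD model, these transcripts held 10.53% of gene TPM in replicate 1 and 10.95% in replicate 2 (10.74% ± 0.299). The per-gene account that follows uses the 1469 of these genes with a gene TPM of at least 10 in both libraries, which carry 2504 NMD models. At the edge of this minimum, Eif2a was inside with 13.07 and 10 TPM and P4ha2 outside with 12.54 and 9.99 TPM. The median gene held 3.014% of its TPM in NMD transcripts in the first table and 5.163% in the second. At the low end, 239 genes were listed at 0 in both libraries of the first table and 193 held under 1% in both tables. At the high end, 211 genes held at least 20% in both libraries of the first table (14.4% of the 1469; replicate 1 alone gave 321 and replicate 2 alone 252), 280 in the second (19.1%) and 151 in both (10.3%). At least 50% was held in 47 genes (3.2%), 67 genes (4.56%) and 28 genes (1.91%). Among genes with a retained-intron model, 652 of 3177 reached 20% in the first table (20.52%), and among those with a processed transcript 385 of 2371 (16.24%).

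The share was greater in genes with more annotated NMD models. Its median was 1.451% over the 879 genes with 1 model, 4.516% over the 353 with 2 and 12.37% over the 237 with 3 or more, and the second table gave 2.866%, 8.27% and 16.08%. Over all genes with an NMD model, whatever their level, the median share was lower in more abundant genes, at 5.801% over 1750 genes with a mean gene TPM of 1 to 10, 3.466% over 1214 genes at 10 to 30, 2.242% over 399 genes at 30 to 100 and 1.764% over 97 genes above 100. The part of genes at 20% or more did not follow the same order, with 15.54%, 12.93%, 18.3% and 15.46% in those bins. By TPM summed over both libraries, the most abundant transcript was an NMD model in 103 genes of the first table, in 131 of the second and in 61 of both. A coding transcript was the most abundant in both tables in 1142 genes.

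The share per gene was close between libraries and less so between tables. Across the 1469 genes, which are not independent replicates, the libraries gave a Pearson r of 0.962 and a Spearman rho of 0.863 in the first table and 0.949 and 0.889 in the second. The tables, which are built from the same reads, gave 0.692 and 0.638. The median absolute difference was 1.369 percentage points between the libraries of the first table, 1.804 between those of the second and 3.359 between tables. Differences of at least 20 points were found in 3, 9 and 140 genes.

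**Figure D3:**
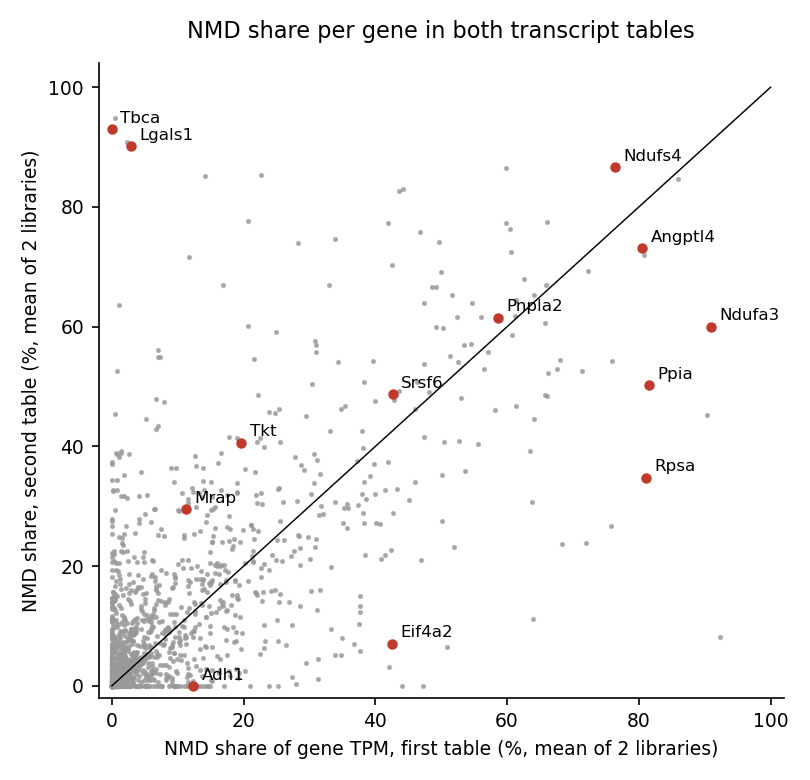
Percentage of gene TPM in NMD transcripts in the first table (x axis) and the second (y axis), mean of the 2 libraries, for the 1469 genes at 10 TPM. Each point is a gene, red points are named genes and the line marks equality. Ndufs4, Angptl4 and Pnpla2 lie near the line, Ppia, Rpsa and Eif4a2 below it, and Lgals1 and Tbca at the upper left, far above it.

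NMD TPM was spread unevenly over genes, and this was not compared with the spread of other transcript classes. The 20 leading genes held 23.05% of all NMD TPM in the second table. In replicates 1 and 2 of the first table they held 28.33% and 28.47%, and 99 genes held 50% of it. At the top was Ppia (ENSMUSG00000071866.12), the peptidyl-prolyl isomerase cyclophilin A, with 476 TPM of NMD transcript in replicate 1 and 300.0 TPM in replicate 2. This came from a single model, Ppia-201 (chr11:6415870-6419815, plus strand), with 10887 and 7536 expected counts. It held 81.5% of Ppia TPM in both libraries of the first table and 47.6% and 52.8% in the second. Ppia-201 has only 5 bases outside the coding exons, and its annotation support is at level 5. The gene family has many pseudogene copies, and whether shared reads touch these values was not tested.

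A ribosomal protein gene showed the same gap between tables. Rpsa, a protein of the small subunit that also serves as a laminin receptor, had 179 and 134.5 TPM in NMD transcripts, at 79.6% and 82.6% in the first table and 30.2% and 39.4% in the second. The gene held over 30% in NMD transcripts in every library and table. Ribosomal protein genes also have many processed pseudogenes, and the effect of shared reads on their counts was not tested.

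Several of the leading genes, which were chosen for their NMD TPM or high share, encode proteins of energy or lipid metabolism. Ndufa3, a subunit of respiratory complex I, had 194 and 155 TPM in NMD transcripts, all of it in Ndufa3-204, at 90.6% and 91.4% of the gene in the first table and 62.5% and 57.5% in the second. Ndufs4, another complex I subunit, had 53.1 and 40.4 TPM, at 77% and 75.7%, and 86.6% and 86.7% in the second table. Pnpla2 (ENSMUSG00000025509.15), the adipose triglyceride lipase that opens the breakdown of stored fat, had 161 and 151 TPM, at 60.6% and 56.6%, and 60.1% and 62.8% in the second table. Most of this was the poison-exon model Pnpla2-201 shown above, with 157 TPM in replicate 1 (deposited interval 147 to 161) and 147 TPM in replicate 2 (137 to 151). All 4 values of the gene's share thus lie between 56.6% and 62.8%.

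Abhd5, the protein co-activator of that lipase, had 21.1 and 14.6 TPM in NMD transcripts, at 59.6% and 63.1% of the gene in the first table and 64.9% and 63.9% in the second. Angptl4, a secreted inhibitor of lipoprotein lipase, had 27.1 and 24.6 TPM in the single model Angptl4-202, at 81.3% and 79.7%, and 71.9% and 74.4%. Chpt1, which makes phosphatidylcholine, had 63.9 and 67.5 TPM, at 61.9% and 59.6%, and 58.7% and 58.6%. As shown above, the main Chpt1 model keeps the normal stop codon, so a high share in that gene is not a high share of truncated reading frames. All 3 genes were above 50% in every library and table. Fat markers were present in both libraries, as given above, and which cells hold these transcripts was not tested.

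**Figure D4:**
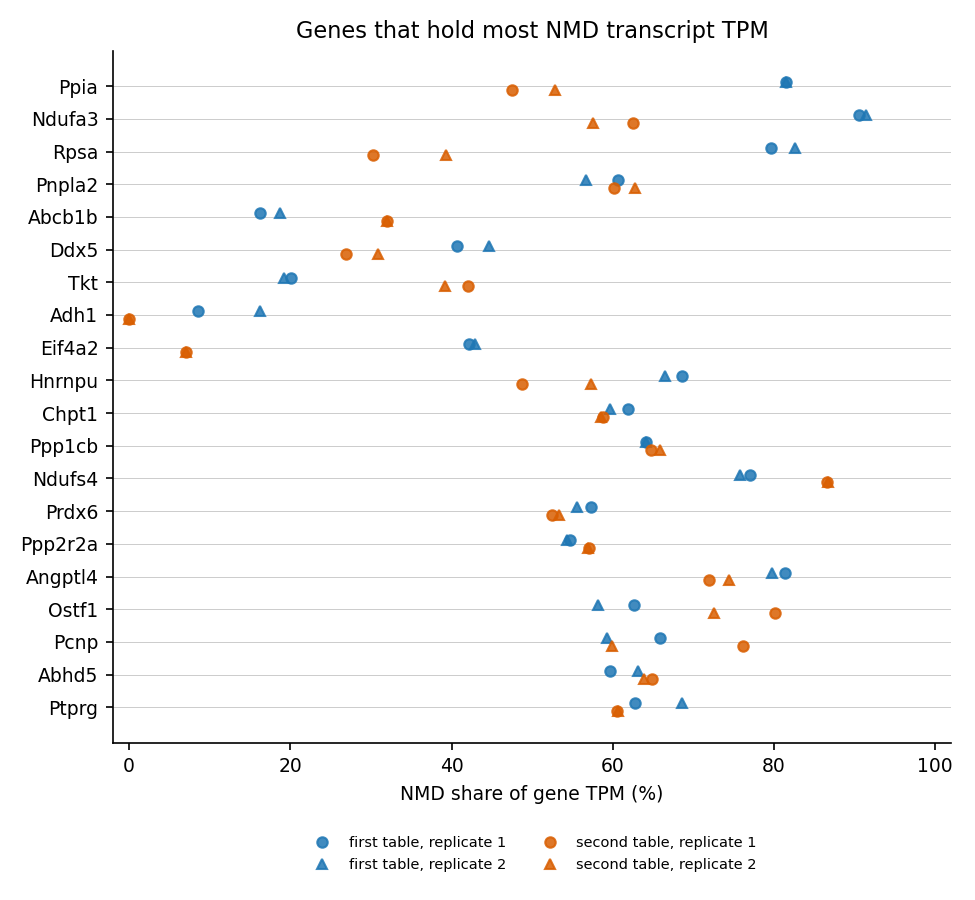
Percentage of gene TPM in NMD transcripts (x axis) for named genes among those with the most NMD TPM and among the leading 12 of the 28 genes at 50% or more in both libraries and both tables (y axis). Blue, first table; orange, second table; circles, replicate 1; triangles, replicate 2. Symbols of one colour lie close together in most genes, and Eif4a2, Rpsa and Ppia show the blue symbols well to the right of the orange ones.

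Signalling and regulatory genes were also among those above 50% in every value. Ppp1cb, a catalytic subunit of protein phosphatase 1, was at 64.1% in both libraries of the first table and at 64.8% and 65.9% in the second. Both Ppp1cb models use the same stop codon as the reference, so this is not a share of early stops. Ppp2r2a, a regulatory subunit of protein phosphatase 2A, was at 54.6% and 54.4%, and 57.1% and 57.0%, with its NMD TPM in the extra-exon model Ppp2r2a-203. Prdx6, a peroxiredoxin that reduces peroxidised phospholipids, was at 57.3% and 55.5%, and 52.4% and 53.4%. Ptprg, a receptor-type tyrosine phosphatase, was at 62.8% and 68.6%, and 60.5% and 60.6%. The 4 genes had between 15.5 and 69.5 TPM of NMD transcript in the first table. Ostf1 held 62.7% and 58.1%, and 80.2% and 72.6%, and Pcnp held 65.9% and 59.3%, and 76.1% and 59.9%, so both had their widest spread between libraries in the second table.

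Other genes with abundant NMD transcripts held a lesser part of the gene in them. Abcb1b, a drug efflux pump of the plasma membrane, had 118 and 88.2 TPM of NMD transcript in the first table, at 16.2% and 18.7% of the gene, and 31.9% in both libraries of the second. Tkt, the transketolase of the pentose phosphate pathway, had 87.4 and 68.6 TPM in the short model Tkt-205, at 20.1% and 19.2%, and 42.0% and 39.2% in the second table. Ddx5, an RNA helicase of splicing and transcription, had 104.5 and 80.2 TPM, at 40.7% and 44.7%, and 26.9% and 30.9% in the second table, with the intron-keeping model Ddx5-208 as its largest part at 74.3 and 50.5 TPM. Adh1, an alcohol dehydrogenase, had 63.3 and 87.8 TPM in the exon-skipping model Adh1-202, at 8.51% and 16.2%, and was listed at 0 in both libraries of the second table. Adh1-202 has no base outside the coding exons.

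Conflicts between tables ran in both directions. In 5 genes the second table gave at least 50% and the first under 10% in both libraries, and in 0 genes the reverse. That 0 rests on the limits used: Mrps14, a mitochondrial ribosomal protein named here after its values were seen, was at 93.3% and 91.2% in the first table and at 5.37% and 10.8% in the second. Lgals1, the sugar-binding protein galectin-1, had 2.38 and 4.31 TPM of NMD transcript in the first table, at 1.62% and 4.07%, against 343 and 315 TPM in the second, at 89.8% and 90.5%. Tbca, a tubulin-folding cofactor, was listed at 0 in the first table and at 86.0% and 100% in the second. Pdrg1 was at 3.68% and 0.806% against 89.9% and 91.8%, and Rnasek at 1.11% and 0.975% against 73.0% and 54.4%. The fifth, Hist1h2br, had only 0.145 and 0.367 TPM of NMD transcript in the second table, so its share there is of a gene near 0. For these 5 genes the level of the NMD transcript depends on the table.

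SR proteins are the textbook case of self-limiting by poison exons. Of the 13 listed SR genes, 12 reached 10 TPM and 11 of these had an NMD model. Among all 4603 protein-coding genes at 10 TPM, 1469 had one. NMD transcripts held 12.1% and 13.96% of the summed TPM of the 11 SR genes in the first table and 12.28% and 14.04% in the second. Over all 1469 genes the sums were 10.37% and 10.8%, and 13.02% and 13.39%. The median member held 11.35%, against 3.014% over all genes. The 2 sets were not matched for the number of NMD models per gene, with which the share rose. At least 20% was reached by 2 of 11 members in the first table (18.18%) against 14.4% over all genes, and by 3 in the second (27.27%) against 19.1%. Without Srsf6 the first-table sums were 7.946% and 10.12%.

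Srsf6, an SR protein that acts on alternative exons, led the group with 28.6 and 19.4 TPM in Srsf6-201, at 42.4% and 42.9% of the gene in the first table and 47.6% and 49.8% in the second. The 4 values of Srsf6 were close in libraries and tables alike. Tra2b, an SR-like splicing activator, had 10.2 and 5.80 TPM, at 29.1% and 31.4%, and 12.4% and 19.2% in the second table, most of it in the poison-exon model Tra2b-206 with 8.17 TPM (interval 5.56 to 9.96) and 5.13 TPM (3.49 to 6.10). Its paralog Tra2a had 3.04 and 2.46 TPM in Tra2a-202, at 9.75% and 15.9%, and 32.3% and 41.3% in the second table. The order of the paralogs thus turned over between tables.

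Srsf3, which also promotes export of mRNA, had 7.09 and 5.76 TPM in the poison-exon model Srsf3-201, at 15.9% and 19.1%, and 27.8% and 25.2% in the second table. Srsf1, a founding member of the family, had 7.62 and 10.4 TPM of NMD transcript, at 10.4% and 19.1%, and 7.55% and 19.3%. Its share was higher in replicate 2 in both tables, by more than that of any other SR gene in the first. Srsf2 was at 7.68% and 11.2% in the first table and at practically 0 in the second, and neither of its 2 models has a base outside the coding exons. Srsf4 was at 12.7% and 9.97%, and 12.9% and 11.8%. Srsf11, Srsf7 and Srsf9 lay between 0.99% and 5.35% in the first table and between 1.31% and 7.78% in the second. Srsf5 was listed at 0 in the first table and at 0.95% and 1.05% in the second.

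**Figure D5:**
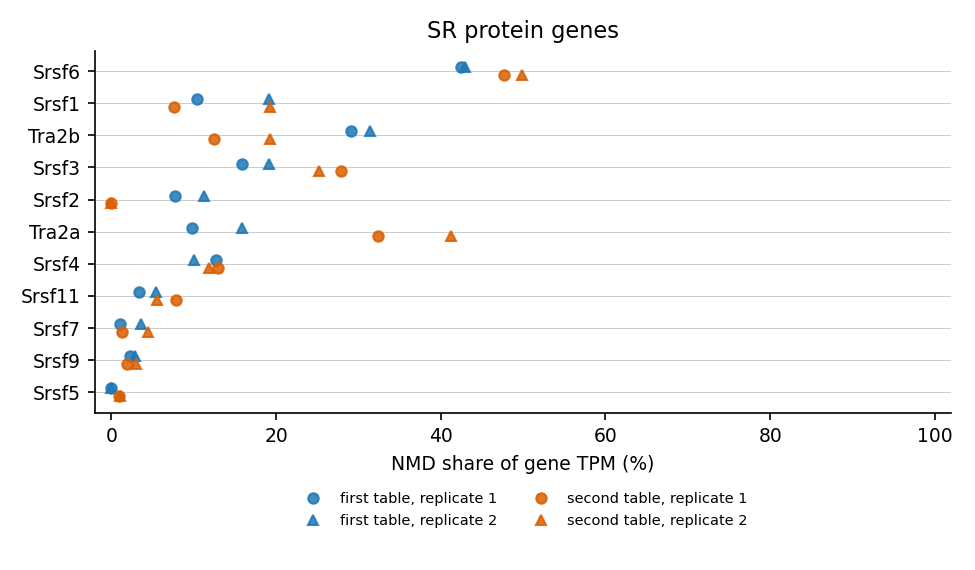
Percentage of gene TPM in NMD transcripts (x axis) for the 11 SR protein genes at 10 TPM (y axis). Blue, first table; orange, second table; circles, replicate 1; triangles, replicate 2. Srsf6 lies at 42.4% to 49.8% in all 4 values, Tra2a and Tra2b change places between tables, and Srsf5, Srsf7, Srsf9 and Srsf11 lie below 8%.

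Other RNA-binding proteins, the hnRNP group and splicing factors outside the SR family, gave sums of 14.52% and 14.32% over 37 genes in the first table. Of these, 6 reached 20% (16.22% against 14.4% over all genes) and 8 did so in the second table (21.62% against 19.1%), both near the share over all genes. The median member held 9.746% against 3.014% over all genes, and 12.52% against 5.163% in the second table. A median above that of all genes was thus not particular to SR proteins. This list was not matched for the number of NMD models either, and it holds Tardbp with 10 and Rbm39 with 8. Hnrnpu, a nuclear scaffold and RNA-binding protein, had 80.1 and 55.2 TPM of NMD transcript, at 68.6% and 66.5%, and 48.7% and 57.3%, and without it the first-table sums were 11.51% and 11.12%. Its main model is the near full-length Hnrnpu-206 shown above. Tardbp, which encodes TDP-43 and is known to limit its own mRNA, had 35.1 and 22.1 TPM, at 40.6% and 43.2%, and 36.4% and 38.4% in the second table. Hnrnpa1 was at 53.8% and 52.1%, and 47.2% and 49.1%, and both of its models use the same stop codon as the reference. Rbm39 was at 16.5% in both libraries, and 30.3% and 35.2%.

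Of 23 listed genes of the NMD pathway itself, 5 have an NMD model and 3 of them reached 10 TPM. Their NMD transcripts held 0.660% and 0.350% of the summed TPM of the 3 genes in the first table, and 7.048% and 10.15% in the second. Smg1, the kinase that phosphorylates UPF1, was listed at 0 in the first table and at 17.1% and 19.4% in the second, in a model of 12147 bases with no base outside the coding exons. Smg5, an adaptor that binds phosphorylated UPF1, was at 0% and 1.19%, and 2.33% and 3.40%. Ruvbl2, an ATPase that regulates SMG1, was at 1.76% and 0%, and 3.24% and 6.58%. None of the 3 reached 20% in both libraries of either table, beside 14.4% and 19.1% of all genes.

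The list of translation factors and stress genes held more than the whole gene set in the sum and in the median, over only 5 genes. The sums were 19.76% and 22.26% in the first table and 21.41% and 23.56% in the second, and the median was 16.88%. Eif4a2, a helicase that opens the 5′ end of mRNAs, had 84.1 and 54.5 TPM, at 42.2% and 42.9% in the first table but 7.02% and 7.10% in the second. Most of the first-table value was the exon-skipping Eif4a2-210, with 71.7 and 46.4 TPM. Eef1b2, an elongation factor subunit, was at 29.9% and 31.9%, and 55.5% and 58.3%. Eif4g1, the scaffold of the cap-binding complex, was at 14.6% and 19.1%, and 14.6% and 12%. Eif4a1 was at only 2.13% and 5.77% in the first table, and at 17.9% and 19.2% in the second. The lowest of the 5 genes was at 0 in the first table. Without Eif4a2 the first-table sums were 12.7% and 15.95%.

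In the cytosolic ribosomal protein list, 18 genes were measured and 4 reached 20% in the first table (22.22% against 14.4%), while the median gene held only 1.849%. The sums were 17.39% and 18.07%. Rpl14 was at 19.4% and 26.3%, and 11.4% and 17.0%. Rpl13a was at 10.2% and 9.42% in the first table, and 0.117% and 0% in the second. The summed share was thus well above the median member's.

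Mitochondrial protein genes showed a similar split. Of 46 measured, 12 reached 20% in the first table (26.09% against 14.4%) and 11 in the second (against 19.1%), 9 of them in both, while the median was 1.244% against 3.014% over all genes in the first table and 6.784% against 5.163% in the second, so its place relative to all genes changed with the table. The sums were 10.44% and 10.86%, and 6.721% and 6.989% without Ndufa3. Atp5f1, a subunit of the stalk of ATP synthase, had 51.3 and 43.0 TPM in the poison-exon model Atp5f1-203 shown above, at 48.3% and 52.4%, and 40.9% and 40.7%. Ndufa10, a complex I subunit, was at 20.5% and 23.4%, and 25.9% and 35.2%.

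Selenoprotein mRNAs are known substrates of the pathway, since the selenocysteine codon can also be read as a stop codon, and polyamine genes are under translational control. Of 6 measured, 1 reached 20% in the first table (16.67% against 14.4% over all genes) and 1 in the second (16.67% against 19.1%). That gene was Selenok, a selenoprotein of the endoplasmic reticulum, with 15.4 and 10.9 TPM in the extra-exon model Selenok-203, at 42.9% and 41.1%, and 78.0% and 76.5%. Odc1, the rate-limiting enzyme of polyamine synthesis, had 15.7 and 11.8 TPM, at 11.2% and 13.7%, and 8.80% and 9.59%. Azin1, its activator, was at 6.39% and 5.03%, and 10.8% and 10.7%. Selenos was at 1.51% and 1.74%, and 25.2% and 19.4%.

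Of 29 steroidogenesis genes, 5 have an NMD model. At 10 TPM, 4 of 23 members have one, beside 1469 of all 4603 protein-coding genes. Together, the 4 genes' NMD transcripts held 1.913% and 1.568% of their TPM in the first table and 5.265% and 4.988% in the second, against 10.37% and 10.8%, and 13.02% and 13.39%, over all 1469 genes. Mrap, the accessory protein that takes the ACTH receptor to the cell surface, made up most of it with 25.5 and 7.86 TPM, at 11.7% and 10.8%, and 28.1% and 30.9%. Mrap as a whole gene was also lower in replicate 2, at 218 and 72.5 TPM, while the 2 first-table shares lay within 1 point. Fdx1, the ferredoxin that passes electrons to the mitochondrial steroid enzymes, was at 1245 and 540 TPM as a gene with 0.483% and 0.728% in NMD transcripts, and 0.417% and 0.837% in the second table. Lipe, which frees cholesterol from its esters, was at 0.193% and 0.361%, and 2.90% and 4.49% in the second table. Cyb5a was at 0.301% and 0.0982%, and 0.767% and 0.892%. Without Mrap the first-table sums were 0.449% and 0.615%.

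Of 23 chromaffin cell genes of the medulla, 2 have an NMD model and only Th was measured. At 10 TPM this is 1 of 11 members, beside 1469 of all 4603 protein-coding genes. Th, the rate-limiting enzyme of catecholamine synthesis, was at 210 and 184 TPM as a gene. Its NMD transcripts were listed at 0 in both libraries of the first table and held 17.9% and 7.86% in the second, where all 1469 genes summed to 13.02% and 13.39%. The Th models with TPM in the second table have no base outside the coding exons.

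Between the libraries, single NMD transcripts were 2-fold apart more often than transcripts as a whole, in both directions. The 2 sets were not matched for count. With scaled counts and a mean of at least 20 expected counts, 1964 NMD transcripts could be compared in the first table. Of these, 290 (14.77%) were at least 2-fold higher in replicate 2, against 12% of all 39463 transcripts compared, and 285 (14.51%) were at least 2-fold higher in replicate 1, against 8.3%. Of 2447 compared in the second table, 340 (13.89%) were at least 2-fold higher in replicate 2, against 12.2% of all, and 288 (11.77%) higher in replicate 1, against 8.31%. Of retained-intron and processed transcripts, 16.41% and 15.76% were at least 2-fold higher in replicate 2 in the first table. In the second the values were 16.23% and 14.07%, so the excess in replicate 2 was not particular to NMD transcripts. Higher in replicate 1 were 5.688% and 9.088%, and 5.745% and 9.29%. The median log2 ratio of replicate 2 to replicate 1 was -0.03 for NMD transcripts in the first table and 0.00 in the second, beside 0.28 for retained-intron and -0.09 for coding transcripts in the first. One library stands against 1 here, so these ratios have no replicate check.

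No gene of the 1469 differed by 20 points or more between libraries in the same direction in both tables. A difference of at least 20 points in the first table was found in 3 genes, named here after their values were seen. Lars2, the mitochondrial leucyl-tRNA synthetase, was at 49.2% in replicate 1 and 82.8% in replicate 2, and at 40.0% and 57.0% in the second table. Cmc2 was at 31.1% and 56.2%, and at 73.1% and 92.2% in the second table. Tbrg4 was at 21.1% and 0% in the first table and at 13.5% and 12.9% in the second, where the libraries were thus within 1 point.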

How the data were processed

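Total RNA-seq of 2 adrenal gland libraries was analysed, each with 1 gene table and 2 transcript tables deposited by the authors on mm10 and GENCODE M21, per the deposited read-me files and file headers. Per the file headers, the authors' first transcript table holds expected counts, TPM, a posterior mean TPM and the bounds of a TPM interval, in the column layout of RSEM. The expected and estimated counts were deposited by the authors as values per transcript that need not be whole, and were used unrounded. The second table holds estimated counts and TPM, in the layout of kallisto. The authors scaled TPM to a sum of 1000000 before deposit. The interval bounds are signal values deposited by the authors, whose level is not given in the sources used here, nor are the programs, versions or use of strand in counting. Without strand, reads of overlapping antisense genes cannot be told apart.

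Shares were recomputed as the TPM of a gene's NMD transcripts over that of all its transcripts in the same table. All 141767 identifiers matched the annotation, from which transcript structures were taken. The reference of a gene is its APPRIS principal coding transcript, or else the one with the longest coding sequence. Ratios between libraries used expected counts with 0.5 added, scaled by the median ratio over all transcripts, and a mean count of at least 20. Precision is that of 2 libraries. On simulated data with counting error only, all 200 transcripts changed among 35948 were found, and 146 unchanged ones passed 2-fold. The changed ones had high counts and were changed by more than 2-fold, so their recovery was fixed in advance. Shares had a median error of 0.285 points over 1469 genes. The simulation left out the assignment of reads between transcripts of a gene, so this error does not measure the precision of the shares.

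Named genes were the 12 with the most NMD TPM, up to 12 at 50% or more in both libraries and tables, up to 6 at 50% or more in one table and under 10% in the other, up to 5 in each direction that differed by 20 points between libraries in both tables, all NMD pathway and SR genes, and up to 4 of each other list. Members, lists and rules were chosen with earlier results of these data known. Alternatives were the other table, the posterior mean, counts, other minimums, pseudocounts and scalings, and each replicate left out. Python 3.11.15 with numpy 2.4.6, pandas 2.3.3 and matplotlib 3.10.9 was used. One gene that the rule names enters the totals only and is not described here.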

Additional observations from a re-analysis of the deposited data

How the results depend on the processing

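The second table moved the shares below, the median per gene and the part held by the leading genes by more than the spread between libraries. Of 70 alternative values, 40 stayed within a limit. The limit was that spread for these values and 1.5 times for a count. For the median log2 ratio it was 2.159, the SD over transcripts, which is not a spread between libraries. It was so wide that only a change of sign was marked there. The share over nuclear coding genes was 3.562% in the second table, 2.949% from the posterior mean, 1.985% from counts and 0.759% over all annotated transcripts. It was 2.744% to 2.771% with a replicate left out. Over genes with an NMD model it was 13.55%, 11.35% and 7.583% under the first 3 of these settings, and 10.53% to 10.95% with a replicate left out. The median per gene was 5.163% in the second table, 4.445% from the posterior mean, 3.62% and 2.324% at gene minimums of 5 and 20 TPM, and 2.983% to 3.175% with a replicate left out. Genes at 20% numbered 346 and 112 at those minimums and 252 to 321 with a replicate left out, which also drops its gene minimum. The 321 was without replicate 2. Genes at 50% numbered 76, 28 and 61 to 68. The 20 leading genes held 23.05% in the second table, 25.94% from the posterior mean and 28.34% to 28.76% with a replicate left out. NMD transcripts at 1 TPM numbered 1774 in the second table, 1045 to 1182 in a single library, and 1352 and 195 at minimums of 0.5 and 5 TPM. The median log2 ratio changed sign, from -0.03 to 0.0026 in the second table and to 0.1022 when scaled by coding transcripts. Transcripts 2-fold apart numbered 575 as reported, 1363 and 249 at mean counts of 5 and 50, and 2415 with no filter. The next settings were chosen after seeing the data. Only models with at least 50 bases outside coding exons gave a share of 0.988%, 71 genes at 20% and 12 at 50%, by construction fewer. Shares of counts gave 166 and 48 genes. The cause of the other changes was not tested. No paired analysis was possible because the series has 1 group. How depth limits the split of a gene's TPM was not tested.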
